A study of Mus musculus with 12 samples.

Results

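Moxd1 and 9 other genes were described because their liver RNA levels differed widely between mice of the vendors Taconic and Jackson in both housing conditions. The members were Moxd1, Capn8, Zfp791, Camk2b, Plcd3 and Mid1, which were higher in Taconic mice, and Upp1, Serpinb1a, Cldn7 and Cd79a, which were lower. They are 10 of the 23909 genes in the table. They were chosen by their measured differences in level between the vendors, in the mice kept apart and in the cohoused mice. These vendor differences are therefore given as a description, with no test.

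The series measured liver RNA of C57BL/6 mice by sequencing, to ask how gut microbes that differ between colonies bear on liver gene expression. JAX mice came from Jackson and TAC mice from Taconic, and each of these groups was housed for 4 weeks with mice of its own vendor. CoJAX mice were Jackson mice caged for 4 weeks with Taconic mice, and CoTAC mice were Taconic mice from such shared cages. There were 12 libraries, 3 in each of 4 groups. The substrain, sex, age and cage of the mice are not given in the labels. The vendor difference therefore takes in colony genetics and everything else that sets the colonies apart, and these cannot be told apart. Samples are listed separately, but the labels do not state that each library came from its own animal. P-values here therefore reflect variation among libraries, part of which can be technical.

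The members belong to different branches of cell biology. Moxd1 is a copper-dependent monooxygenase related to dopamine beta-hydroxylase. Capn8, Camk2b and Plcd3 act in calcium signalling, which in hepatocytes links hormones and nerve signals to glucose output and bile flow. Upp1 breaks down uridine, a nucleoside that the liver supplies to the blood, while Serpinb1a, Cldn7 and Cd79a are known mainly from neutrophils, epithelial junctions and B cells.

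Levels are deposited RPKM values, that is reads scaled to gene length and to library size. From the steps between low values, relative depth (JAX 1 set to 1) ranged from 0.758 to 1 for JAX libraries and from 0.794 to 1.754 for TAC. It ranged from 1.088 to 1.879 for CoJAX and from 1.59 to 1.84 for CoTAC. Depth thus moved with housing. Summed depth was also higher for Taconic libraries, at 3.6 for TAC against 2.56 for JAX and 5.1 for CoTAC against 4.24 for CoJAX. Within each housing the ranges of the vendors overlapped. Alb, the albumin gene that defines hepatocytes, lay at 512 to 1152 RPKM. Xist was at 0 to 0.0208 RPKM and the Y-linked gene Ddx3y at 15.5 to 31.0 RPKM in all 12 libraries.

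Promoters of 3 members that followed each other closely across the libraries are printed so that their sequence composition can be compared. They are RefSeq sequences of the build GRCm38.p6, from 250 bases before to 50 bases after the annotated start, written 5′ to 3′ on the strand of the gene. Capitals mark matches, on either strand, to any of 6 motifs. These were the box spelled TATAAA, the promoter element spelled CCAAT, the box rich in G and C spelled GGGCGG, the palindromic E-box element spelled CACGTG, the core of STAT sites spelled TTCNNNGAA and a hormone response element spelled TGACCTTTG. The Moxd1 promoter is chr10:24223267-24223566 (plus strand), that of Capn8 is chr1:182564757-182565056 (plus strand) and that of Camk2b is chr11:6065699-6065998 (minus strand).
Moxd1: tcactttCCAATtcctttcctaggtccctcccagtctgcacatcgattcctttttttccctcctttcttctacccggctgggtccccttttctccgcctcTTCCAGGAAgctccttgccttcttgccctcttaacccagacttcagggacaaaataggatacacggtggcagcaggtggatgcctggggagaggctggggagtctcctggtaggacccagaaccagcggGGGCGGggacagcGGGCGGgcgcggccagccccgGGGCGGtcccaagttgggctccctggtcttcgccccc
Capn8: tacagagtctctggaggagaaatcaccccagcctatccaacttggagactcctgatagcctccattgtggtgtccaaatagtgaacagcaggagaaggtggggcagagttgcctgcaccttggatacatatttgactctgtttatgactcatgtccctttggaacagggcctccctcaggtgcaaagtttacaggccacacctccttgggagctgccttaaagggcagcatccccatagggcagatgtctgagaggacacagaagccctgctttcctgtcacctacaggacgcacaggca
Camk2b: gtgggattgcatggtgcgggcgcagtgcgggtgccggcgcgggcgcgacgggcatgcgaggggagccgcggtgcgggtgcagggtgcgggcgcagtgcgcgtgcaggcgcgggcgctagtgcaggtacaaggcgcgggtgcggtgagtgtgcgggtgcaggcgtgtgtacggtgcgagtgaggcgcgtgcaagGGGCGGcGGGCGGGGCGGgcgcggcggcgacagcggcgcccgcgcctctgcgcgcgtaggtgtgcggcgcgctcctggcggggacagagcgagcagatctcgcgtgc

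The printed promoters were unlike one another in composition. Moxd1 had a GC content of 61.7%, 13 CpG dinucleotides, 1 CCAAT match, 3 GC box matches and 1 STAT core match. Capn8 had a GC content of 52.7%, 1 CpG and no match to the 6 motifs. Camk2b had a GC content of 77.3%, 51 CpG and 3 GC box matches, a pair of which overlap. Over 32544 RefSeq promoters of this length the medians were a GC content of 53% and 7 CpG. A GC box match was present in 35.9% of these, CCAAT in 37.4%, TATAAA in 13.6%, CACGTG in 7.17%, TTCNNNGAA in 8.33% and TGACCTTTG in 0.482%. None of the 6 motifs was matched in all 3 printed promoters. These matches are letters in a window and do not show binding.

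Read numbers could be recovered for 6 members, because their values were close to whole multiples of 1 read. The limit was 0.02 of a read at low read numbers and wider at high ones. These were Moxd1, Zfp791, Plcd3, Upp1, Serpinb1a and Cd79a. No such common step was found for Capn8, Camk2b, Mid1 and Cldn7, so their read numbers are unknown. Ratios of reads are given per relative depth with exact 95% Poisson intervals, which cover counting error only and not the spread between mice.

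Moxd1 had by far the widest span of the members. In JAX it was listed at 0, 0.201 and 0.423 RPKM, from 0, 1 and 2 reads. In TAC it was 128, 163 and 49.1 RPKM, from 635, 1068 and 537 reads. All TAC libraries lay far above all JAX libraries, and the summed reads per depth stood in a ratio of 530 (181 to 2572).

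Among cohoused mice the Jackson libraries spread widely in Moxd1. CoJAX 1, 2 and 3 were at 1.33, 29.8 and 0.342 RPKM (9, 236 and 4 reads), and CoTAC at 150, 93.5 and 164 RPKM (1567, 1073 and 1622 reads). CoJAX 2 alone was well above the Jackson mice kept apart, although it stayed below the lowest Taconic library, TAC 3. The ratio of CoTAC to CoJAX reads per depth was 14.2 (12.5 to 16.2), and that of CoJAX to JAX, resting on CoJAX 2 and on 3 JAX reads, was 50.1 (16.9 to 245). Relative to the Alb level of the same library, Moxd1 was at 26%, 18% and 27.2% in CoTAC 1, 2 and 3 and at 11.2%, 17.8% and 8.95% in TAC 1, 2 and 3. Alb itself was lower in cohoused mice (-0.57 on the log2 scale, adjusted p = 0.0371 by limma-trend), but depth moved with housing. TAC 3, kept apart at a relative depth of 1.754, had Alb at 549 RPKM, within the CoTAC range of 519 to 602 RPKM. Housing called 33.3% of all genes, and 0.00829% with depth in the fit. Housing and depth were not told apart for Alb or for these percentages.

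Capn8 encodes calpain 8, a calcium-dependent protease known from mucous cells of the stomach. Its levels were 1.44, 2.81 and 1.35 RPKM in JAX and 12.1, 14.6 and 8.09 RPKM in TAC. Cohoused, they were 4.52, 6.98 and 3.29 RPKM in CoJAX and 16.4, 14.7 and 16.4 RPKM in CoTAC. The 4 groups formed an order without overlap, from JAX through CoJAX and TAC to CoTAC, but the upper end of TAC (14.6 RPKM) and the lower end of CoTAC (14.7 RPKM) nearly touched.

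Camk2b encodes the beta subunit of calcium/calmodulin-dependent kinase II, best known from neurons. Its levels were 1.72, 3.54 and 3.56 RPKM in JAX and 9.54, 11 and 11.9 RPKM in TAC. In CoJAX they were 2.03, 6.02 and 3.42 RPKM, and in CoTAC 17.7, 14.6 and 10.5 RPKM. JAX and CoJAX overlapped, as did TAC and CoTAC, while the vendors did not.

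Plcd3 encodes a delta-type phospholipase C, which splits a membrane phosphoinositide into second messengers that release calcium and activate protein kinase C. It was at 0.817, 1.43 and 0.431 RPKM in JAX (5, 7 and 2 reads) and at 5.14, 5.58 and 3.73 RPKM in TAC (25, 36 and 40 reads). In CoJAX it was at 0.45, 0.257 and 0.348 RPKM (3, 2 and 4 reads), and in CoTAC at 5.18, 1.69 and 7.09 RPKM (53, 19 and 69 reads). CoTAC 2 lay close to JAX 2, and the other Taconic libraries stood clearly above every Jackson library. Reads per depth stood in a ratio of 5.12 (2.92 to 9.7) for TAC to JAX and 13 (6.66 to 29) for CoTAC to CoJAX.

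Mid1 encodes a microtubule-associated ubiquitin ligase that promotes breakdown of the catalytic subunit of protein phosphatase 2A. In laboratory mice the gene spans the boundary of the pseudoautosomal region on the X chromosome. Its levels were 4.53, 5.29 and 3.09 RPKM in JAX and 6.69, 10.1 and 9 RPKM in TAC. In CoJAX they were 3.02, 2.46 and 2.75 RPKM, and in CoTAC 10.8, 15.2 and 8.65 RPKM. All CoJAX libraries lay below all JAX libraries, further from TAC than the mice kept apart, whereas TAC and CoTAC overlapped.

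Zfp791 encodes a zinc finger protein. Zinc finger genes form a large family of similar sequence, so reads of relatives may be counted with it. It was at 0.217, 0.544 and 0 RPKM in JAX (1, 2 and 0 reads) and at 3.55, 7.42 and 9.04 RPKM in TAC (13, 36 and 73 reads). CoJAX lay at 0.399, 1.54 and 0.693 RPKM (2, 9 and 6 reads) and CoTAC at 2.86, 4.84 and 3.28 RPKM (22, 41 and 24 reads). The vendors did not overlap, and within each vendor the housing groups did. The ratio of TAC to JAX reads per depth was 28.9 (9.65 to 142) and that of CoTAC to CoJAX 4.25 (2.51 to 7.62).

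**Figure D1:**
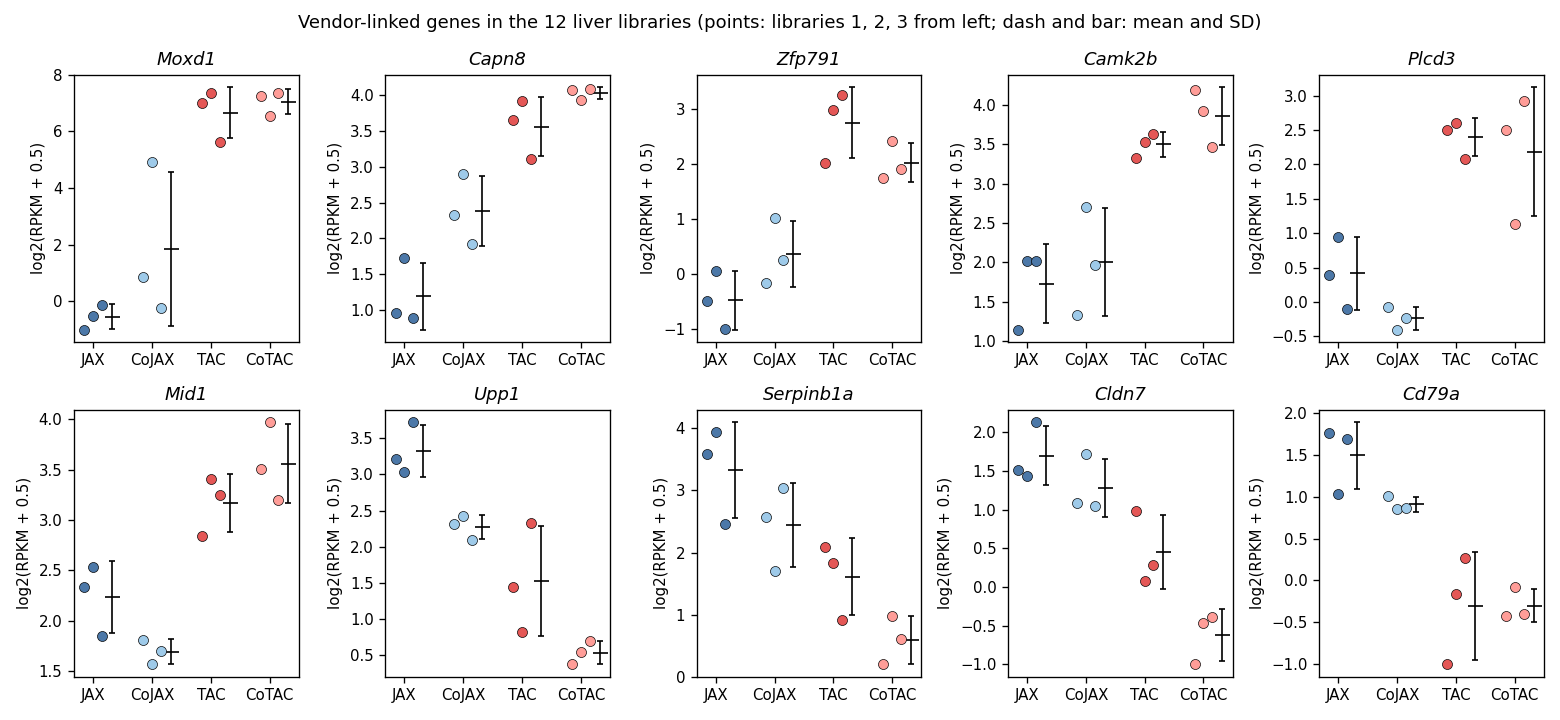
Levels of the 10 members in each of the 12 libraries, as log2(RPKM + 0.5) by group, with a dash and bar for the mean and SD of the 3 libraries. Moxd1 spans from 0 in JAX 1 to 164 RPKM in CoTAC 3, and CoJAX 2 stands apart from the other Jackson libraries at 29.8 RPKM.

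Among the 4 members that were lower in Taconic mice, Upp1 encodes uridine phosphorylase 1, which splits uridine into uracil and ribose phosphate. It was at 8.81, 7.72 and 12.8 RPKM in JAX (20, 14 and 22 reads) and at 2.22, 1.25 and 4.52 RPKM in TAC (4, 3 and 18 reads). CoJAX lay at 4.45, 4.86 and 3.75 RPKM (11, 14 and 16 reads), and CoTAC at 0.79, 0.957 and 1.11 RPKM (3, 4 and 4 reads). TAC 3 overlapped with CoJAX, and within each vendor every cohoused library was below every library kept apart. The ratio of CoJAX to JAX reads per depth was 0.442 (0.288 to 0.673), and that of CoTAC to TAC 0.311 (0.138 to 0.654).

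Serpinb1a encodes an inhibitor of neutrophil serine proteases. Reads of its relatives Serpinb1b and Serpinb1c may be counted with it, so its level is uncertain. These were themselves listed at 0 to 0.403 and 0 to 1.33 RPKM over the 12 libraries. It was at 11.6, 14.9 and 4.98 RPKM in JAX (43, 44 and 14 reads) and at 3.73, 3.07 and 1.38 RPKM in TAC (11, 12 and 9 reads). CoJAX was at 5.45, 2.76 and 7.75 RPKM (22, 13 and 54 reads) and CoTAC at 0.645, 1.47 and 1.02 RPKM (4, 10 and 6 reads). CoJAX 2 was below TAC 1 and TAC 2, so the vendors overlapped across housings but not within either housing.

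Cldn7 encodes claudin-7, a tight junction protein of epithelia, which in liver is known from bile ducts. It was at 2.36, 2.22 and 3.9 RPKM in JAX, at 1.49, 0.56 and 0.715 RPKM in TAC and at 1.63, 2.79 and 1.57 RPKM in CoJAX. In CoTAC it was listed at 0, 0.227 and 0.263 RPKM. TAC 1 at 1.49 RPKM and CoJAX 3 at 1.57 RPKM nearly met, and all CoTAC libraries were below all TAC libraries.

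Cd79a encodes a signalling chain of the B cell receptor and defines B cells. It was at 2.89, 1.55 and 2.72 RPKM in JAX (7, 3 and 5 reads) and at 0, 0.391 and 0.705 RPKM in TAC (0, 1 and 3 reads). CoJAX was at 1.51, 1.3 and 1.32 RPKM (4, 4 and 6 reads) and CoTAC at 0.247, 0.448 and 0.259 RPKM (1, 2 and 1 reads). All Jackson libraries were above all Taconic libraries, with 15 reads in JAX against 4 in TAC and a ratio per depth of 0.189 (0.0457 to 0.594). In bulk liver, fewer B cells and less RNA per cell cannot be told apart, and the same holds for bile duct cells and Cldn7.

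Differences were fitted on log2(RPKM + 0.5), which understates the change of low genes, and are given ± SE from a limma-trend fit to all 12 libraries. For TAC minus JAX they were 7.21 ± 0.99 for Moxd1, 3.23 ± 0.41 for Zfp791, 2.37 ± 0.29 for Capn8, 1.98 ± 0.42 for Plcd3, 1.77 ± 0.34 for Camk2b and 0.93 ± 0.24 for Mid1. The lower members were at -1.80 ± 0.33 for Upp1, -1.79 ± 0.34 for Cd79a, -1.72 ± 0.45 for Serpinb1a and -1.25 ± 0.33 for Cldn7. By size, Moxd1 ranked 3rd of the 12058 genes tested, and the members went down to rank 628 (Mid1).

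For CoTAC minus CoJAX the values were 5.20 ± 0.99 for Moxd1, 2.42 ± 0.42 for Plcd3, 1.86 ± 0.24 for Mid1, 1.85 ± 0.34 for Camk2b, 1.65 ± 0.29 for Capn8 and 1.65 ± 0.41 for Zfp791. Cldn7 was at -1.90 ± 0.33, Serpinb1a at -1.85 ± 0.45, Upp1 at -1.74 ± 0.33 and Cd79a at -1.21 ± 0.34. Moxd1 ranked 14th and Cd79a, the smallest, 182nd. The Moxd1 value rested on CoJAX 2, since it was 6.74 without that library and 4.15 to 5.45 without any of the other 11. Where the choice falls near its lower edge, Mid1 kept apart and Cd79a cohoused are the smallest differences inside it.

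In 8 of the 10 members all 6 Taconic libraries lay on one side of all 6 Jackson libraries, against 0.78% of the genes tested (6 members higher against 0.39%, 2 lower against 0.39%). Within a housing, TAC and JAX did not overlap in 10 of 10 members against 26.2% of genes, and CoTAC and CoJAX in 10 of 10 against 19%. These counts follow from how the members were chosen.

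**Figure D2:**
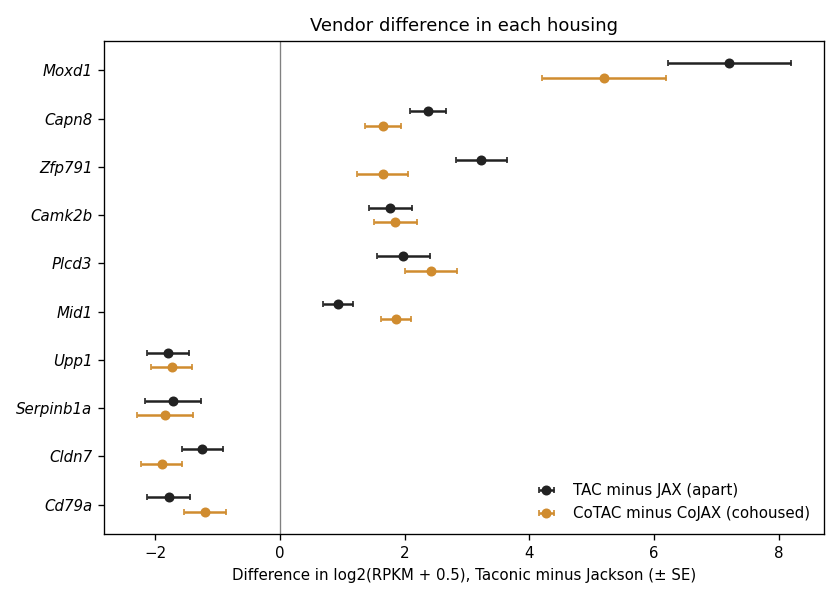
Vendor difference of each member, Taconic minus Jackson on the log2(RPKM + 0.5) scale, for mice kept apart and for cohoused mice, with SE as error bars. Moxd1 is at 7.21 apart and 5.20 cohoused, and each of the other members has the same sign in both housings.

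The cohoused Jackson libraries did not move along one line. Where the JAX mean is set to 0% and the TAC mean to 100%, CoJAX 2 was at 52.5% for Capn8, 39.1% for Camk2b, 26.2% for Moxd1 and 20% for Zfp791. For Mid1 and Plcd3 the same library was at -42.8% and -16.2%, on the far side of JAX. CoJAX 1 and 3 were at 0.989% and 0.118% for Moxd1. For Upp1 the 3 libraries were at 74.9%, 69.1% and 84.7%, nearer to TAC than to JAX, and for Serpinb1a at 64.9%, 99.6% and 35.2%.

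**Figure D3:**
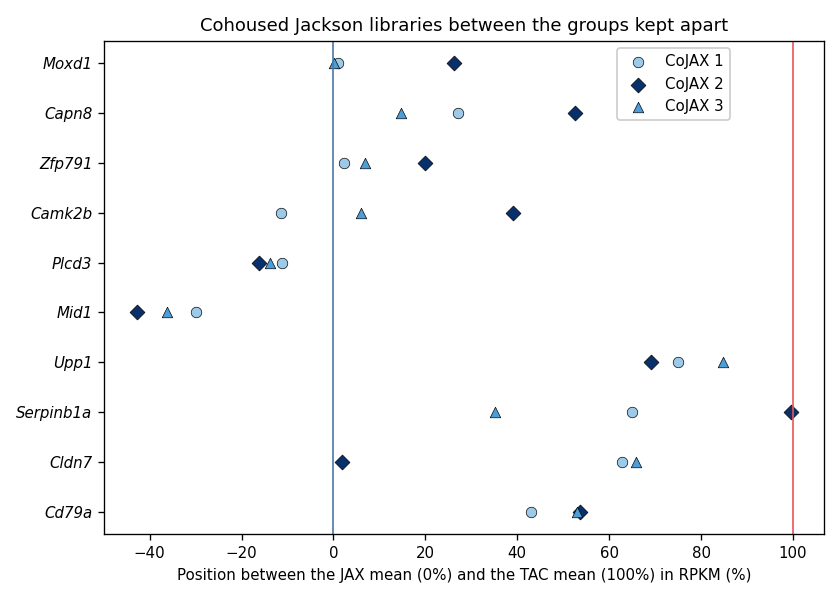
Position of each CoJAX library between the JAX mean (0%) and the TAC mean (100%) on the RPKM scale, for each member. CoJAX 2 lies at 26.2% for Moxd1 and 52.5% for Capn8 but at -42.8% for Mid1, while the 3 libraries are at 69.1% to 84.7% for Upp1.

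Cohousing within a vendor was described without a test, since each such difference shares libraries with the choice of the members. CoJAX minus JAX was 2.39 ± 0.99 for Moxd1, 1.19 ± 0.29 for Capn8, 0.85 ± 0.41 for Zfp791, -0.54 ± 0.24 for Mid1 and -1.06 ± 0.33 for Upp1. CoTAC minus TAC was 0.39 ± 0.99 for Moxd1, 0.47 ± 0.29 for Capn8, -0.73 ± 0.41 for Zfp791, 0.39 ± 0.24 for Mid1, -1.0 ± 0.33 for Upp1 and -1.07 ± 0.33 for Cldn7. CoJAX and JAX did not overlap in 4 of 10 members (Capn8 higher, and Mid1, Upp1 and Cd79a lower), against 43.7% of all genes (21.8% higher, 21.9% lower). CoTAC and TAC did not overlap in 3 of 10 (Capn8 higher, and Upp1 and Cldn7 lower), against 26.4% (14.2% higher, 12.2% lower). Both shares are near those of all genes.

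The average effect of housing over both vendors was tested, because with equal spread in the 4 groups it is independent of the vendor differences that chose the members. The spreads were not equal, so this holds only in part. The SD was 160% of the mean in CoJAX and 27.4% in CoTAC for Moxd1, and 38.1% and 5.99% for Capn8. Capn8 rose in cohoused mice, by 0.83 ± 0.21 (adjusted p = 0.0118). Upp1 fell by 1.03 ± 0.23 (adjusted p = 0.00807), Serpinb1a fell by 0.95 ± 0.32 (adjusted p = 0.0369) and Cldn7 fell by 0.74 ± 0.23 (adjusted p = 0.031). The remaining members did not pass, with Moxd1 at 1.39 ± 0.70 (adjusted p = 0.143), Camk2b at 0.32 ± 0.24 (0.321), Plcd3 at -0.43 ± 0.29 (0.277), Cd79a at -0.29 ± 0.24 (0.364), Mid1 at -0.08 ± 0.17 (0.751) and Zfp791 at 0.06 ± 0.29 (0.884). The 4 calls among 10 members stand beside 33.3% of all genes tested (16.5% higher, 16.8% lower), so the share is near the background.

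The housing calls did not hold once depth, which moved with housing, entered the fit. With log2 relative depth as a covariate 0 members were called by limma-trend, against 0.00829% of genes, and 4 of 10 members had an unadjusted p under 0.05, as did 2408 of all 12058 genes. Capn8 was then at 1.23 ± 0.26 (adjusted p = 0.0985), Upp1 at -1.28 ± 0.33 (0.111), Serpinb1a at -0.85 ± 0.48 (0.344) and Cldn7 at -0.44 ± 0.33 (0.476). Capn8 and Upp1 kept their calls in all 12 fits that left out 1 library. Cldn7 lost its call without JAX 3, TAC 1, CoJAX 1, CoJAX 3 or CoTAC 1 (adjusted p up to 0.073), and Serpinb1a lost its call in 8 of the 12 fits, without JAX 1, JAX 2, TAC 1, TAC 2, CoJAX 1, CoJAX 2, CoTAC 1 or CoTAC 3 (adjusted p up to 0.0878). Moxd1 passed only without CoJAX 3, at 1.91 (adjusted p = 0.0402).

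**Figure D4:**
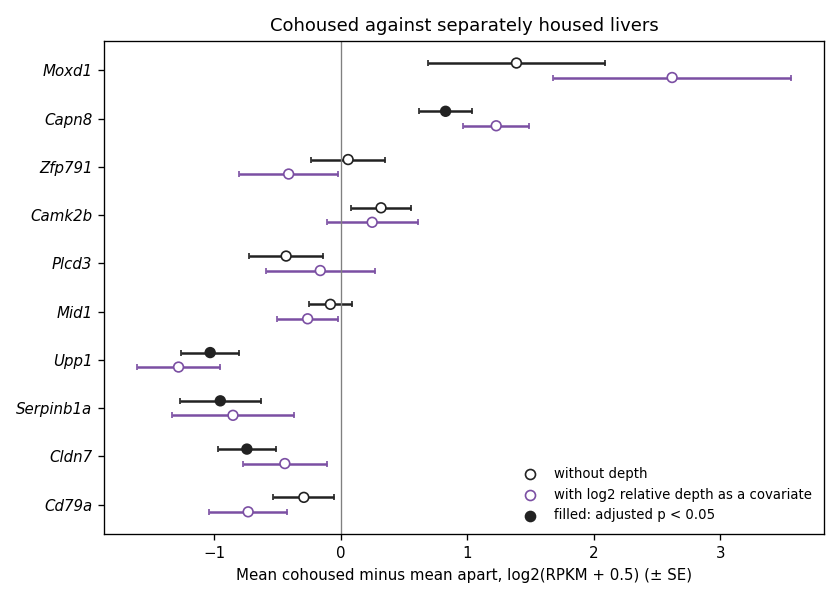
Average housing difference of each member, cohoused minus apart on the log2(RPKM + 0.5) scale with SE as error bars, without and with relative depth in the fit, filled where the adjusted p was below 0.05. Capn8 moves from 0.83 to 1.23 and Upp1 from -1.03 to -1.28, with wider errors when depth is included.

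Genes related to the members by function, cell type markers and genes next to the members on the chromosomes came to 188 tested genes. Of these, 9 were called for TAC minus JAX (5 higher, 4 lower), that is 4.79% against 4.09% of all genes. An unadjusted p under 0.05 was found for 53 of the 188, and for 3163 of all 12058 genes. The share called is near the background, and so are 0 calls in a short list. For CoTAC minus CoJAX 0 were called by limma-trend, against 0.0663% of all genes, and 25 of the 188 had an unadjusted p under 0.05, as did 1304 of all 12058 genes.

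The closest relatives of Moxd1 did not share its pattern. Dbh and Moxd2 were listed at 0 in every library. Pam, the copper monooxygenase that amidates peptides, was at 8.81 ± 1.36 RPKM in JAX (SD, n = 3 here and below), 6.48 ± 2 in TAC, 8.02 ± 2.02 in CoJAX and 4.91 ± 1.53 in CoTAC, a difference of -0.44 ± 0.26 between TAC and JAX (adjusted p = 0.303). Of 9 tested calpain genes 0 were called by limma-trend for either vendor difference. Capn15 had 3.49 ± 0.30 RPKM in JAX and 6.43 ± 1.49 in TAC, a difference of 0.78 ± 0.21 (adjusted p = 0.0557), and the calpain inhibitor Cast a difference of 0.42 ± 0.14 (adjusted p = 0.0846).

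The other calcium genes were likewise without a vendor call among 10 tested calmodulin kinase and calmodulin genes and 8 tested phospholipase C and IP3 receptor genes. Camk2d and Camk2g, the kinase subunits usual outside the brain, were at 0.00 ± 0.19 and -0.32 ± 0.22 for TAC minus JAX (adjusted p = 0.993 and 0.368). Camk2n2, an inhibitor of the kinase, was at 1.08 ± 0.35 (adjusted p = 0.0851), and its relative Camk2n1 at -0.63 ± 0.17 (adjusted p = 0.0555). Of 6 tested Mid1 partners, which include subunits of protein phosphatase 2A, and 8 tested cofactors of zinc finger repressors, 0 were called in either vendor difference.

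Around Upp1, 2 of 17 tested genes of pyrimidine salvage and breakdown were called, both higher in TAC. Tymp, thymidine phosphorylase, rose from 39.3 ± 14.6 RPKM in JAX to 122 ± 17.1 in TAC, by 1.68 ± 0.26 (adjusted p = 0.0186), and lay at 68.5 ± 12.6 in CoJAX and 96.3 ± 19.6 in CoTAC. Dpyd, which begins the breakdown of uracil, rose from 102 ± 6.09 to 152 ± 25.1 RPKM, by 0.57 ± 0.13 (adjusted p = 0.0371). Upp2, the uridine phosphorylase of liver, was at 267 ± 92.4 RPKM in JAX and 248 ± 25.4 in TAC, a difference of -0.06 ± 0.34 (adjusted p = 0.936). The Tymp call was lost without TAC 2, and that of Dpyd in 8 of the 12 fits that left out 1 library (JAX 1, 2 or 3, TAC 2 or 3, CoJAX 1, CoTAC 1 or 3).

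Markers of other cell types were set beside the lower members. Of 20 B cell genes listed 15 were in the table and 5 were tested, with 0 called by limma-trend. All 5 were lower in TAC than in JAX (median -1.34) and lower in CoTAC than in CoJAX (median -0.45). Over all genes tested these medians were -0.01 and 0.01. Vpreb3 was at 0 in TAC and CoTAC and passed the filter only through Jackson libraries. Its lower sign was thus fixed in advance, and the shared direction is a description with no test. For TAC minus JAX, Vpreb3 was at -1.78 ± 0.71, Cd37 at -1.62 ± 0.47, Cd74 at -0.66 ± 0.34 and Igj at -0.42 ± 0.44. Their adjusted p-values by limma-trend were 0.142, 0.0683, 0.237 and 0.571. Cd79b, the partner chain of Cd79a, was at 1.84 ± 1.66 RPKM in JAX, 0.324 ± 0.284 in TAC, 1.62 ± 0.771 in CoJAX and 1.01 ± 0.454 in CoTAC (-1.34 ± 0.50 for TAC minus JAX, adjusted p = 0.122). Pax5 was at 0 in all libraries, Ms4a1 at 0 in JAX and TAC, and the summed B cell level, mostly Cd74, was 120 to 278 RPKM in JAX. In TAC it was 88.7 to 152, for CoJAX 103 to 128 and for CoTAC 47.4 to 97.7. The part of B cells in the Cd79a difference was not tested.

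Of 14 tested claudin and tight junction genes 0 were called in either vendor difference, and Cldn5 of endothelial cells was at -1.34 ± 0.40 for TAC minus JAX (adjusted p = 0.0717). Of 12 bile duct markers 7 were tested. Summed bile duct markers were at 101 to 153 RPKM in JAX and 72 to 105 in TAC. In cohoused mice they were at 71 to 80.6 (CoJAX) and 58.6 to 175 (CoTAC). The sum was mostly Spp1, which alone was at 36.8 to 157 RPKM over the 12 libraries. Their part in the Cldn7 difference was not tested. Neither the 6 tested clade B serpin and neutrophil protease genes nor the neutrophil, T and NK, Kupffer and stellate cell lists (5, 7, 9 and 10 tested) held a vendor call. Of 9 tested hepatocyte markers Cps1, the first enzyme of the urea cycle, rose by 0.69 ± 0.16 in TAC (adjusted p = 0.0367), a call lost in 8 of the 12 fits that left out 1 library (JAX 1, 2 or 3, TAC 2 or 3, CoJAX 1, CoTAC 1 or 3).

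The members lie on 7 chromosomes, with Camk2b, Plcd3, Upp1 and Cldn7 on chromosome 11 and the others on 1, 7, 8, 10, 13 and X. Of 58 neighbours, the nearest 3 tested genes on each side of a member, 5 were called for TAC minus JAX, 2 higher and 3 lower (8.62% against 4.09% of all genes), and 0 by limma-trend for CoTAC minus CoJAX, where 6 of the 58 had an unadjusted p under 0.05, beside the 1304 of all 12058 genes. Next to Moxd1, the pantetheinase genes Vnn1 and Vnn3 went the other way. Vnn1 fell from 38.6 ± 7.71 RPKM in JAX to 13 ± 8.34 in TAC, by 1.69 ± 0.32 (adjusted p = 0.0269), and Vnn3 from 104 ± 15.2 to 51.0 ± 7.64, by 1.02 ± 0.14 (adjusted p = 0.0105). Both calls were lost without TAC 2, and that of Vnn1 also without any JAX library. Stx7, the nearest tested gene on one side, was at 0.35 ± 0.17 (adjusted p = 0.213).

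Near Capn8, Susd4, which encodes a complement inhibitor, rose by 1.62 ± 0.33 (adjusted p = 0.0302) and the unnamed gene 1700056E22Rik fell by 2.18 ± 0.29 (adjusted p = 0.0105), from 9.24 ± 0.75 to 1.70 ± 0.65 RPKM. The 1700056E22Rik call held in all 12 fits that left out 1 library, whereas that of Susd4 was lost without JAX 1, 2 or 3, TAC 2 or TAC 3. Capn2, the nearest tested gene on one side and a calpain itself, was at -0.04 ± 0.12 (adjusted p = 0.86). Next to Zfp791, the retromer gene Vps35 rose by 0.51 ± 0.13 (adjusted p = 0.0458), a call that remained in 2 of the 12 fits, those without TAC 1 or CoTAC 2. For CoTAC minus CoJAX, 1700056E22Rik was at -0.31 ± 0.29, Susd4 at 0.31 ± 0.33 and Vps35 at 0.10 ± 0.13. 1700056E22Rik was at 2.43 ± 0.70 RPKM in CoJAX and 1.88 ± 0.64 in CoTAC. Susd4 was at 10.5 ± 2.58 RPKM in JAX, 35 ± 14 in TAC, 28.4 ± 11 in CoJAX and 33.7 ± 4.9 in CoTAC.

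**Figure D5:**
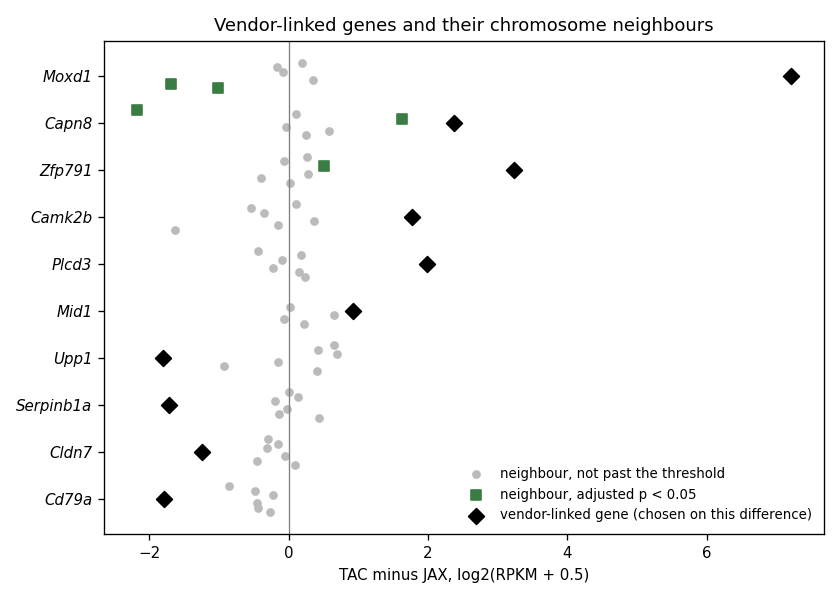
Log2 difference between TAC and JAX for the tested genes next to each member on its chromosome, beside the member itself (diamonds), with squares for neighbours that passed the threshold. Vnn1 and Vnn3 near Moxd1 are at -1.69 and -1.02 while Moxd1 is at 7.21.

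The members' levels followed each other over the 12 libraries, as their choice by vendor brings about. Of 15 pairs of higher members the correlation of log2 values was 0.72 to 0.96 (median 0.81). Once each group's mean was taken out it was -0.30 to 0.73 (median 0.26), and for the 6 pairs of lower members -0.66 to 0.44 (median -0.28). Moxd1 and Capn8 kept the highest value within groups, at 0.732 (0.958 before), and Moxd1 with Camk2b was at 0.547. The libraries share depth and group, so these values describe the table and carry no test.

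Among the other tested genes, those most like Moxd1 in log2 level over the 12 libraries were Arf6 (r = 0.941), a small GTPase of membrane traffic, Asns (0.937), asparagine synthetase, and Nnt (0.935), nicotinamide nucleotide transhydrogenase, which is known to carry a deletion in the C57BL/6J substrain. Nnt was at 18.7 ± 1.55 RPKM in JAX, 54.7 ± 8.52 in TAC, 29.4 ± 4.24 in CoJAX and 60.8 ± 6.03 in CoTAC, and it was also among the 3 most like Capn8, Zfp791 and Camk2b. Its 6 Taconic and 6 Jackson libraries did not overlap, with CoJAX above JAX in every library. Asns was at 4.23 ± 1.87, 27.2 ± 6.62, 7.33 ± 3.87 and 35.0 ± 16.7 RPKM in the same order.

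Mid1 was most like Wdfy1 (r = 0.907), which was at 7.96 ± 1.68 RPKM in JAX, 16.5 ± 3.31 in TAC, 4.23 ± 0.62 in CoJAX and 21.6 ± 1.21 in CoTAC. As for Mid1, the CoJAX libraries of Wdfy1 lay below the JAX libraries. Plcd3 was most like Slc25a25 (0.918), a mitochondrial carrier, and Zfp791 like Hs2st1 (0.940), a heparan sulfate sulfotransferase. Of the lower members, Cd79a was most like Abcd2 (0.959), a peroxisomal fatty acid transporter, Serpinb1a like Gsn (0.942), the actin-severing protein gelsolin, Cldn7 like Mrpl45 (0.914) of the mitochondrial ribosome, and Upp1 like Akip1 (0.913). With group means taken out, the genes most like Moxd1 were Ppp2r5a (0.889), a regulatory subunit of protein phosphatase 2A, Abhd11os (0.889) and Sytl1 (0.887). All these correlations are the highest picked from the tested genes and carry no test.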

How the data were processed

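Liver mRNA was sequenced in 12 samples of 4 groups. The authors deposited 1 table of RPKM values. The submitters' processing notes name Bowtie 1.0.0, Cuffdiff 2.1.1 and the build mm9 without roles. Annotation and strand handling were not given in the sources used here. Columns were mapped by the library code in the titles, and 0 value columns had no sample. Left out were 27 lines named by a date (0.16% to 0.2% of each library's RPKM).

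From the deposited RPKM, log2(RPKM + 0.5) was fitted with limma-trend (limma 3.58.1, R 4.3.3) for the 12058 genes that reached 1 RPKM in 3 or more libraries. All 10 members passed, the low ones through the groups where they are high. P-values are two-sided and Benjamini-Hochberg adjusted over all genes, with a threshold of 0.05. The fit was tested on simulated data. Members, gene lists and the rule for named genes (the most alike genes, called list genes and neighbours, and relatives of the members) were chosen with earlier results of these data known. Further genes were named after their values were seen. The result of 1 listed gene is not reported here. Neighbours came from RefSeq gene order (12000 tested genes matched), without coordinates since its build differs from mm9. Promoters were present for 9 of 10 members. Alternatives varied pseudocount, filter, scaling, depth, a replicate block, a separate fit per comparison and left-out libraries.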

Additional observations from a re-analysis of the deposited data

Results flagged for a closer look

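The fitted cohousing differences of Zfp791 and Mid1 had opposite signs in mice of the 2 vendors. Zfp791 was at 0.85 ± 0.41 for CoJAX minus JAX and at -0.73 ± 0.41 for CoTAC minus TAC on the log2 scale, a difference of -1.57 ± 0.57. Mid1 was at -0.54 ± 0.24 and 0.39 ± 0.24, a difference of 0.93 ± 0.34. Both differences were not tested, since they are made of the vendor differences that chose the members. With depth as a covariate, Zfp791 was at 0.34 ± 0.48 for CoJAX minus JAX and -1.15 ± 0.45 for CoTAC minus TAC. Mid1 was then at -0.74 ± 0.31 and 0.23 ± 0.29, so for each gene the rise was smaller than its SE. The Zfp791 ratio of CoJAX to JAX reads per depth was 3.42 (0.989 to 18.2), from 17 and 3 reads.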

How the results depend on the processing

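Of the members' vendor differences recomputed, 205 of 210 kept apart and 204 of 210 cohoused moved by less than 1 SD, and 0 changed sign. Many of these settings cannot move a vendor difference. They are another filter, the replicate block, the separate fit and leaving out a library of the other housing. The counts are therefore partly fixed in advance, and the members were chosen for large differences. Of 200 recomputed housing averages 172 kept their direction and side of the threshold. That of Zfp791 changed sign with a pseudocount of 1 (-0.05), with depth as a covariate (-0.41) and among the fits without 1 library (-0.12 to 0.20), and that of Mid1 ranged from -0.18 to 0.01 without 1 library. Members called for housing were 4, 0 with depth, 2 with the replicate block and 2 to 4 without 1 library. Housing called 4012 genes, 1 with depth and 2884 to 4373 without 1 library.

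TAC against JAX called 493 genes, 328 with no filter, 810 with quantile scaling, 132 with depth, 63 with the replicate block, 13 in a separate fit and 11 (without TAC 2) to 2113 (without TAC 1) without 1 library. CoTAC against CoJAX called 8 genes, 5 with depth, 1 in a separate fit and 2 (without CoTAC 3) to 229 (without CoTAC 2) without 1 library. Of the related genes TAC against JAX called 9, 15 with quantile scaling, 5 with depth, 4 with the replicate block, 1 in a separate fit and 1 to 36 without 1 library, and CoTAC against CoJAX 0 to 4 without 1 library. The cause was not tested. The main fit did not pair samples by replicate number. Deviations of same-numbered libraries correlated at -0.174 to 0.151, and 1 of 12 libraries was most like one of its own number. The labels give no cages, so these correlations do not settle whether same-numbered cohoused libraries shared a cage. Depth limits the low members, with 0 to 7 reads of Cd79a in a library.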
